A study of Mus musculus with 24 samples.

Results

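Wild-type (WT) mouse embryonic stem cells (ESCs) of the line V6.5 were set against WT ESCs of the line J1 as undifferentiated cells on day 0 and as embryoid bodies (EBs) on days 3 and 7. The arrays were chosen by genotype and line in the sample titles, which gave 12 of the 24 arrays of the series: 6 arrays of V6.5 and 6 of J1, with 2 arrays per line and day. The other 12 arrays hold Eed knockout (KO) cells of the lines J1 and E14 on the same days. They entered the estimate of the spread and are otherwise used only where named. The series asks, by its title, about EED, a core subunit of a Polycomb repressive complex, in the silencing of pluripotency genes during differentiation. Both WT lines were grown with LIF, a cytokine that holds ESCs undifferentiated, on inactivated mouse embryonic fibroblasts, and neither carries the knockout or an added agent. EBs were started in hanging drops without LIF after the fibroblasts had been depleted. Each line is 1 clone, so a difference between the lines and a difference between 2 clones cannot be told apart. Nothing in the labels ties the 2 arrays of a line and day to separate cultures, and the p-values therefore reflect array-to-array spread that may be technical only.

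ESC lines differ in strain of origin, in time in culture and in how readily they leave the naive state, the state of the preimplantation epiblast that is held by factors such as Esrrb, Nr5a2, Tfcp2l1, Tbx3 and Nr0b1. In EBs the naive factors are silenced first. Genes of the primed epiblast and of the primitive streak follow, and then genes of mesoderm, endoderm, blood and heart. J1 comes from an inbred strain and V6.5 from a cross between strains, so the lines are not isogenic.

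Values are log2 RMA values, so that 1 unit is a 2-fold difference in hybridisation signal, and every difference below is V6.5 minus J1. A gene was called at an adjusted p under 0.05 and a difference of at least 1, with limma over 19938 genes. Averaged over the 3 days 85 genes were called, 0.426% of those tested, 29 higher and 56 lower in V6.5. On day 0 there were 190 (0.953%), with 52 higher and 138 lower. On day 3 there were 127 (0.637%), with 59 higher and 68 lower, and on day 7 there were 198 (0.993%), with 118 higher and 80 lower. On each day the 2 V6.5 arrays lay on one side of the 2 J1 arrays for every gene called on that day. The call itself favours this, and the share over all genes was not counted, so nothing is read from it. Of the 85 genes called over the days, 57 were apart in this way on each day. The calls of single days depended on single arrays. A fit without 1 array leaves 1 array in its group, so its p-values come from the spread of the other groups. Without a J1 array of day 7 the spread between the 2 J1 arrays of that day drops out, and calls become easier. Without V6.5 replicate 1 of day 0 the count of that day was 93. On day 3 it was 59 without V6.5 replicate 2, 67 without J1 replicate 2 and 225 without J1 replicate 1. On day 7 it was 121 without V6.5 replicate 2, 586 without J1 replicate 1 and 787 without J1 replicate 2.

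Repeat arrays correlated across genes at r = 0.990 to 0.995 in 11 of the 12 pairs of the series, with 21 to 163 genes at least 2-fold apart. The WT J1 pair of day 7 stood apart, with r = 0.962 and 1256 genes at least 2-fold apart, 416 of them higher in replicate 1 and 840 higher in replicate 2. Results of day 7 are therefore given with both J1 arrays. The label of an undifferentiated state on day 0 was met by the core factors: Pou5f1 read 12.65 and 12.46 in V6.5 and 12.37 and 12.35 in J1, and Sox2 read 12.11 and 11.98 in V6.5 and 11.74 and 12.05 in J1. Nanog read 12.03 and 12.08 in V6.5 and 11.56 and 12.06 in J1. Eed, the gene deleted in the KO clones, was present in both lines on day 0, at 10.83 and 11.02 in V6.5 and 10.28 and 10.80 in J1. None of these genes was called between the lines in any comparison. Over the 27 measured genes of a fibroblast list, which would mark leftover feeder cells, the mean level on day 0 was 8.01 and 7.81 in V6.5 and 8.06 and 7.86 in J1.

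A set of 22 genes was called with 1 sign on all 3 days, 0.11% of those tested, of which 6 were higher in V6.5 (2410018L13Rik, 5730507C01Rik, AI506816, G530011O06Rik, Mid1 and Mir382) and 16 lower. Mid1 on chromosome X, which encodes a microtubule-bound ubiquitin ligase (probe set 10603208), differed most among the named genes that were higher. Mid1 read 11.07 and 11.22 in V6.5 and 6.82 and 7.05 in J1 on day 0. On day 3 Mid1 read 10.99 and 11.17 in V6.5 and 7.51 and 7.60 in J1, and on day 7 it read 11.02 and 11.24 in V6.5 and 9.01 and 8.31 in J1. The V6.5 arrays were thus flat over time, while the J1 arrays were higher on day 7 than on day 0, and no array of one line overlapped with the other. The mean difference of Mid1 over the days was 3.40 (SE 0.107, adjusted p = 2.5e-13). AI506816, which the naming rule passes over and which was chosen after its values were seen, read 8.17 and 8.51 in V6.5 and 3.67 and 4.13 in J1 on day 0. AI506816 differed by 5.24 on day 3 (SE 0.239) and by 5.41 on day 7. The number of its probe set (10351504) lies among those of genes of another chromosome than the symbol's, so the symbol may not name the transcript that was read.

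Among the genes lower in V6.5 on all days were the X-linked genes Nxf3 and Fmr1nb. Nxf3 on chromosome X, of the nuclear RNA export factor family (probe set 10606837), read 5.28 and 5.18 in V6.5 and 8.58 and 8.66 in J1 on day 0. Nxf3 read 5.30 and 5.48 in V6.5 and 8.17 and 8.09 in J1 on day 3, and 5.13 and 5.36 in V6.5 and 8.45 and 9.01 in J1 on day 7. The J1 arrays were high at every time and the V6.5 arrays near the low end of the scale, a difference of −3.20 over the days (SE 0.147, adjusted p = 1.3e-10). Fmr1nb, the neighbour of Fmr1, was also lower in V6.5 on every day, by −2.74, −2.44 and −1.77 on days 0, 3 and 7 (SE 0.189). Usp26, which encodes a deubiquitinase of the testis, read 5.71 and 5.99 in V6.5 and 9.93 and 10.02 in J1 on day 0. The Usp26 difference was −4.12 on day 0 and −2.20 on day 3 (SE 0.26), and on day 7, when J1 read 6.10 in both arrays, Usp26 was not called. Ct55, a cancer and testis antigen gene, was lower on day 0 alone by the test of each day, at 5.78 and 5.76 in V6.5 and 8.13 and 9.0 in J1. The change in the Ct55 difference between days 0 and 3 was itself called, at 2.49 (SE 0.326, adjusted p = 0.0093), the only call of that comparison (0.00502% of genes, against 1074 genes at an unadjusted p under 0.05). It was lost without V6.5 day 0 replicate 1 (0.087), V6.5 day 0 replicate 2 (0.099), J1 day 3 replicate 2 (0.12) or V6.5 day 3 replicate 2 (0.14).

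**Figure D1:**
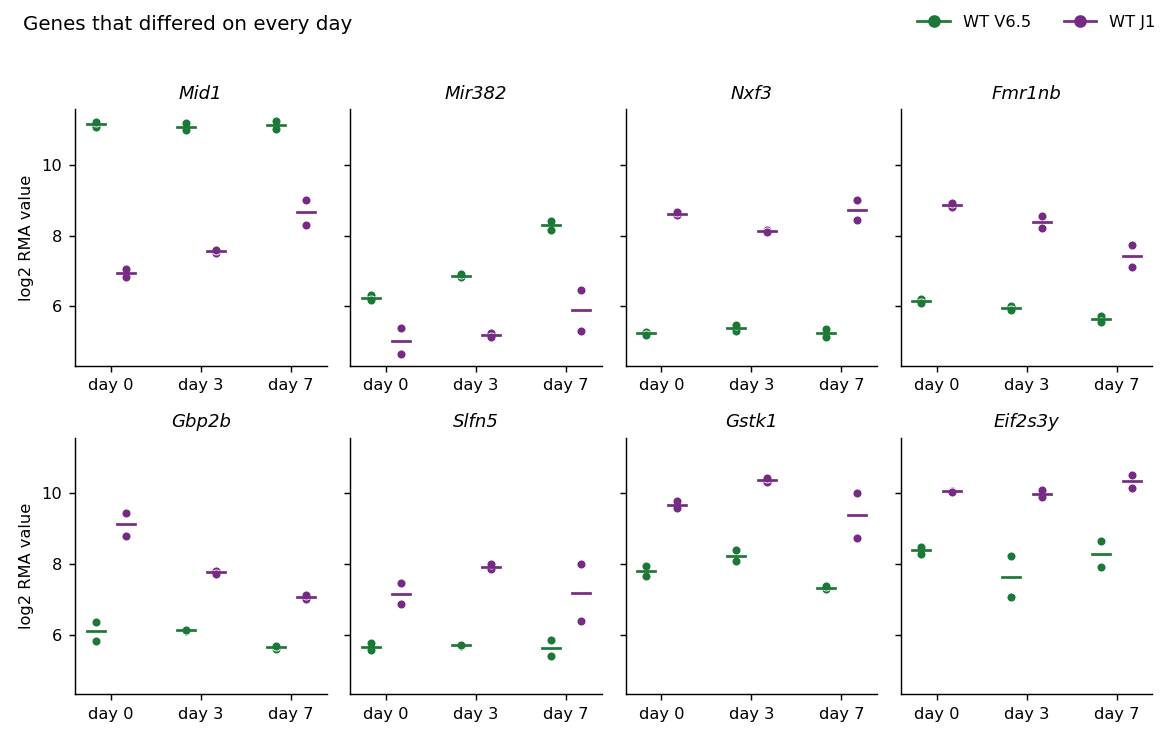
Log2 RMA values of 8 genes that differed between the lines on every day, with V6.5 arrays left of J1 arrays on each day, points for single arrays and bars for the mean of 2. Mid1 and Mir382 were higher in every V6.5 array than in the J1 arrays of the same day, and the other 6 genes were lower.

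The Y-linked genes Eif2s3y and Uty were lower in V6.5. Eif2s3y, which encodes a translation initiation factor subunit, read 8.48 and 8.28 in V6.5 and 10.07 and 10.04 in J1 on day 0, and it stayed lower in V6.5 on all days, by −2.03 over the days (SE 0.164, adjusted p = 5e-07). Uty, an X-homologous demethylase family gene, was lower by −1.61 (SE 0.175, adjusted p = 1.1e-05). Of 8 measured Y-linked genes 2 were lower in the mean over days (background 0.281%), on day 0 (0.692%) and on day 7 (0.401%), and 3 on day 3 (0.341%), when Zfy1 was added at −1.56 (SE 0.237). None was higher. Xist, the RNA of the inactive X chromosome in female cells, read 6.63 and 6.71 in V6.5 and 6.89 and 6.43 in J1 on day 0 and was not called. The list median was −0.32 over the days, against −0.04 over all genes. The day calls of Uty were lost on day 0 without any 1 of that day's 4 arrays (adjusted p of 0.10 without V6.5 replicate 1, 0.17 without V6.5 replicate 2, 0.089 without J1 replicate 1 and 0.14 without J1 replicate 2). They were also lost on day 3 without V6.5 replicate 1 (0.053) and on day 7 without V6.5 replicate 2 (0.097), and that of Zfy1 without V6.5 day 3 replicate 2 (0.055).

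Gbp2b, Gbp3, Irgm1 and Slfn5, all interferon-inducible, were lower in V6.5. The guanylate-binding protein gene Gbp2b, part of cell-autonomous defence, read 5.82 and 6.36 in V6.5 and 8.80 and 9.43 in J1 on day 0. On day 7 Gbp2b read 5.59 and 5.68 in V6.5 and 7.02 and 7.11 in J1. The Gbp2b difference was −2.03 over the days (SE 0.149, adjusted p = 1.5e-07), and its signal may be shared with near-identical Gbp paralogs. Gbp3 was lower by −1.52 over the days (SE 0.15, adjusted p = 4.5e-06), and Irgm1, an immunity-related GTPase, by −1.80 (SE 0.173, adjusted p = 3.2e-06). Slfn5, a Schlafen gene, read 5.69 and 5.70 in V6.5 and 7.86 and 7.99 in J1 on day 3, and was lower by −1.77 over the days (SE 0.192, adjusted p = 1.1e-05). The J1 arrays of Slfn5 on day 7 lay far apart, at 6.37 and 8.0. Of 23 measured genes of an interferon response list, 1 was lower in the mean over days (background 0.281%), 2 on day 0 (0.692%), 1 on day 3 (0.341%) and 4 on day 7 (0.401%), and none was higher. Gbp2b, Irgm1 and Slfn5 are not on that list, and Gbp3 is. The list median was −0.44 over the days, against −0.04 over all genes. The other list members called were Irf1, an interferon-responsive transcription factor, on day 0 at −1.10 and on day 7 at −1.09 (SE 0.17), and on day 7 Oasl2 at −1.25 (SE 0.318) and Ddx58, a sensor of viral RNA, at −1.25 (SE 0.299). With probe sets of a gene averaged Irf1 was at −0.59 on day 0 and −0.69 on day 7 and was not called. With J1 replicate 1 left out, Ddx58 was at −1.88, and with J1 replicate 2 left out it lost its call (adjusted p = 0.16). The day 7 calls of Oasl2 (0.11) and Gbp3 (0.078) were also lost without J1 replicate 2. Without V6.5 replicate 1 or 2 of day 7 the calls of Ddx58 (0.081 and 0.18), Oasl2 (0.11 and 0.19) and Gbp3 (0.13 and 0.083) were lost. The day 3 call of Gbp3 was lost without V6.5 replicate 1 (0.14) or 2 (0.17) or J1 replicate 1 (0.11) or 2 (0.13).

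Psmb8, H2-Q4 and Tapbp, genes of antigen presentation, were lower in V6.5 on day 0. The immunoproteasome subunit gene Psmb8 was lower on day 0, at 6.11 and 6.29 in V6.5 and 7.47 and 7.71 in J1, and by −1.01 over the days (SE 0.1, adjusted p = 4.8e-06). The class I gene H2-Q4 was lower on day 0 by −1.11 (SE 0.177) and Tapbp, which loads peptides on class I molecules, by −1.03 (SE 0.161). On day 0 these were 3 of 14 measured members (background 0.692%). In the mean over days (background 0.281%) and on day 3 (0.341%) only Psmb8 was lower. On day 7 no member was, and none was higher in these comparisons. The constitutive proteasome, kept as a control list, had 0 of 31 members called in any of these comparisons and a median of −0.03 over the days. Tapbp fell under the 2-fold limit without J1 day 0 replicate 2 (−0.85) or V6.5 day 0 replicate 2 (−0.92). Psmb8 did so in the mean over days without V6.5 day 0 replicate 1 (−0.98), V6.5 day 3 replicate 2 (−0.94), V6.5 day 7 replicate 2 (−0.92), J1 day 0 replicate 2 (−0.97), J1 day 3 replicate 1 (−0.95) or J1 day 7 replicate 1 (−0.99). On day 3 Psmb8 did so without J1 replicate 1 (−0.94) or V6.5 replicate 2 (−0.90).

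The promoters of the interferon-inducible genes were searched for GAAA, any 2 bases and GAAA again, the core of the interferon-stimulated response element, on both strands of the 250 bases before each start. The motif stood in 10 of the 21 genes of the interferon list that have a promoter entry (47.6%), against 936 of 27025 genes with an entry (3.46%). Of the 4 list members called lower in V6.5 only 1, Gbp3, held it. The 4 genes shown were chosen after their values were seen, because they lead the group above. The capitals mark the match farthest from the start of the gene, in RefSeq sequence of GRCm38.p6, 5′ to 3′ on the strand of the gene.
Gbp2b, plus strand, chr3:142594700-142594729, match on the opposite strand: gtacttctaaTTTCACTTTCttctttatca
Gbp3, plus strand, chr3:142559989-142560018, match on the opposite strand: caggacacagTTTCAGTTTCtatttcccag
Irgm1, minus strand, chr11:48871431-48871460, match on the strand of the gene: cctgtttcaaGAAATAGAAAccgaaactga
Slfn5, plus strand, chr11:82951937-82951966, match on the strand of the gene: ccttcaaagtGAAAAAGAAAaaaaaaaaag
Irgm1 and Gbp3 each hold 2 matches, Gbp2b and Slfn5 each 1. The printed matches begin 137 bases before the start in Gbp2b, 45 in Gbp3, 30 in Irgm1 and 155 in Slfn5. A match describes the sequence and does not show that a factor binds there.

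Mir382, Mir377 and Mir300, microRNA genes of the imprinted Dlk1 to Dio3 region on chromosome 12, which are expressed from the maternal copy together with the noncoding RNAs Meg3 and Rian, were higher in V6.5. Of 37 measured genes of the region 3 were higher in the mean over days (background 0.145%), 2 on day 0 (0.261%), 1 on day 3 (0.296%) and 4 on day 7 (0.592%), and none was lower. The list median was 0.32 over the days. The 4 microRNA genes called have these mature sequences in RefSeq (GRCm38.p6, plus strand of chromosome 12), with the seed, bases 2 to 8, in capitals.
mmu-miR-382-5p, chr12:109733781-109733802: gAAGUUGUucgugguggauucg
mmu-miR-382-3p, chr12:109733819-109733840: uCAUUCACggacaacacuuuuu
mmu-miR-377-5p, chr12:109740515-109740536: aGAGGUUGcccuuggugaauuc
mmu-miR-377-3p, chr12:109740553-109740574: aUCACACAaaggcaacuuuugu
mmu-miR-300-5p, chr12:109724318-109724339: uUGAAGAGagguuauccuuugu
mmu-miR-300-3p, chr12:109724363-109724384: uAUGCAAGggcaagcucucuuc
mmu-miR-376c-5p, chr12:109722733-109722754: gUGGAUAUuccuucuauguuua
The 7 mature sequences carry 7 different seeds. The array reads total RNA at the hairpin, and neither the arm nor the mature microRNA is resolved.

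Mir382 (probe set 10398420) read 6.31 and 6.17 in V6.5 and 4.65 and 5.37 in J1 on day 0. On day 3 Mir382 read 6.82 and 6.91 in V6.5 and 5.25 and 5.14 in J1, and on day 7 it read 8.42 and 8.16 in V6.5 and 5.31 and 6.46 in J1. The lines did not overlap on any day, and the difference was 1.77 over the days (SE 0.174, adjusted p = 4.3e-06). On day 7 Mir377 read 8.34 and 8.79 in V6.5 and 6.09 and 7.01 in J1, and Mir300 read 6.90 and 7.20 in V6.5 and 5.08 and 5.68 in J1. These were differences of 2.02 (SE 0.358) and 1.67 (SE 0.294). Mir382 lay under the low-value limit of 7 in every WT array of days 0 and 3. Mir300 did so in every WT array of day 7 but V6.5 replicate 2, so the sizes of these differences are uncertain. Mir376c was called on day 7 at 3.44 and 4.50 in V6.5 and 2.85 and 3.04 in J1. All 4 arrays lay far under the low-value limit of 7 and the J1 arrays near the lowest value of the table (2.08), so no size is read from it. Rian was called on day 0 alone, at 8.42 and 8.27 in V6.5 and 7.59 and 6.55 in J1. Meg3, at 10.39 and 10.55 in V6.5 and 10.23 and 9.76 in J1, was not called on any day. The day 0 call of Mir382 was lost without J1 replicate 1 (adjusted p = 0.35), V6.5 replicate 1 (0.23) or V6.5 replicate 2 (0.13). Its day 3 call was lost without J1 replicate 2 (0.075) or V6.5 replicate 2 (0.086). Without V6.5 day 7 replicate 2 the day 7 calls of Mir377 (0.069), Mir300 (0.060) and Mir376c (0.16) were lost, and that of Mir376c also fell under the 2-fold limit without J1 day 7 replicate 1. The call of Rian was lost without J1 day 0 replicate 2 (0.36), V6.5 replicate 1 (0.21) or V6.5 replicate 2 (0.12). In the mean over days Mir300 was 0.84 to 0.99 and Mir377 was 0.81 to 0.97 without J1 day 7 replicate 1, J1 day 3 replicate 2, V6.5 day 3 replicate 2 or V6.5 day 7 replicate 2, and each also lost its call without 1 J1 array of day 0, replicate 2 for Mir300 and replicate 1 for Mir377.

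The glutathione transferase genes Gstk1, Gstm5 and Gstm6 were lower in V6.5. Gstk1, the mitochondrial kappa-class enzyme, read 7.65 and 7.93 in V6.5 and 9.59 and 9.77 in J1 on day 0, and 8.08 and 8.38 in V6.5 and 10.31 and 10.42 in J1 on day 3. On day 7 Gstk1 read 7.28 and 7.37 in V6.5 and 8.74 and 10.00 in J1. Its difference was −2.02 over the days (SE 0.167, adjusted p = 6e-07). Of 31 measured genes of a redox list 2 were lower in the mean over days (background 0.281%), both of the mu class: Gstm5 at −1.31 (SE 0.149) and Gstm6 at −1.24 (SE 0.147). The list median was −0.16 over the days, against −0.04 over all genes. On day 0 there were 2 members lower (background 0.692%), on day 3 1 (0.341%) and on day 7 3 (0.401%). The microsomal enzyme gene Mgst1 was lower on day 7 by −1.17 (SE 0.189). No gene of the list, which does not hold Gstk1, was higher. Nnt, a mitochondrial enzyme gene that some inbred strains lack in part, differed by −0.16 on day 0 (SE 0.177) and was not called on any day. Mgst1 was at −0.99 without J1 day 7 replicate 2. The day calls of Gstm6 were lost without J1 day 0 replicate 1 (adjusted p = 0.076) or 2 (0.053), V6.5 day 0 replicate 2 (0.14), J1 day 3 replicate 1 (0.13), V6.5 day 3 replicate 1 (0.14) or 2 (0.11), and V6.5 day 7 replicate 2 (0.092). The day 0 call of Gstm5 was lost without J1 replicate 1 (0.084) or V6.5 replicate 2 (0.15).

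The remaining named genes called in the mean over days were mixed in function. Higher in V6.5 were the pseudogenes Vmn2r-ps104 at 1.36 (SE 0.105) and Nlrp5-ps at 1.09 (SE 0.0841), the zinc finger gene Zfp640 at 1.27 (SE 0.234), Trim12a at 1.25 (SE 0.11) and Aida at 1.15 (SE 0.0804). The glutamine transporter gene Slc1a5 was higher by 1.11 (SE 0.124), the glycine transporter gene Slc6a9 by 1.07 (SE 0.124) and the small nucleolar RNA gene Snord58b by 1.09 (SE 0.175). Igfbp3, which encodes a binding protein for insulin-like growth factors, was lower by −1.63 (SE 0.179). Other genes lower on all 3 days were Klk8, a serine protease gene, by −1.24, −1.42 and −1.32, and Bche, the butyrylcholinesterase gene, by −1.16, −1.22 and −1.11 on days 0, 3 and 7. The 4 lower genes not described elsewhere were Anxa4, Cyp2j6, Hmgn5 and Slc43a3. In the mean over days Zfp640 was at 0.97 without J1 day 3 replicate 2, Slc1a5 at 0.96 without J1 day 7 replicate 2, and Snord58b at 0.92 without V6.5 day 0 replicate 1 and at 0.98 without V6.5 day 7 replicate 2. Slc6a9 was at 0.95 without J1 day 7 replicate 1 and at 1.00 without J1 day 0 replicate 2.

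Whole chromosomes differed between the lines. On chromosome 11 the median difference over the days was −0.19 across 1563 genes, and 90.9% of these genes were below 0, whereas the median over all genes was −0.04. Among the genes that passed a filter on low values (at least 7 in at least 2 WT arrays, 1104 genes of chromosome 11), the median was −0.25, a 0.84-fold level, and 91.8% were below 0. On chromosome 1 the median was 0.11 across 1122 genes, and among the 702 that passed the filter it was 0.33, a 1.26-fold level, with 16.1% below 0. Chromosome 6 had −0.10 after the filter, and the 16 other autosomes had medians of 0.01 to 0.06. After the filter the shift of chromosome 11 held on each day, at −0.26, −0.23 and −0.26, and along the chromosome, with medians of −0.29 to −0.19 in 10 bins of gene order. Chromosome 1 had 0.19, 0.34 and 0.40 on days 0, 3 and 7, and 0.26 to 0.40 in 10 bins. These are descriptions across genes that share arrays, with no test.

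Both shifts were seen in each array. For each array, the median deviation of the genes that passed the filter from their means over the 8 arrays of the same day was taken per chromosome, less the same median over all chromosomes. For chromosome 11 it ran from −0.08 to −0.04 in V6.5, from −0.07 to −0.03 in KO J1, from −0.09 to −0.05 in KO E14, and from 0.16 to 0.22 in WT J1. The WT J1 arrays thus stood above all others on chromosome 11, those of the KO clone of the same line included. On chromosome 1 the deviation ran from 0.07 to 0.22 in V6.5, from −0.13 to −0.10 in KO J1, from 0.12 to 0.16 in KO E14 and from −0.18 to −0.11 in WT J1. Here both lines other than J1 were high, KO E14 over part of the chromosome only. In 10 bins of gene order, KO E14 minus WT J1 had medians of 0.24 to 0.50 in bins 1 to 7. In bins 8 to 10 it had −0.01 to 0.06, where V6.5 minus J1 stayed at 0.32 to 0.36. DNA copy number was not measured. Each chromosome was also centred in each array, a setting added after seeing the data. Of the 85 genes called over the days 69 kept their call with it, of 77 called. Irgm1, Slfn5 and Igfbp3 on chromosome 11 kept theirs, whereas Irf1 fell to −0.84 on day 0 and −0.83 on day 7. Aida, placed on chromosome 1 by its symbol, was at 0.84, but its probe set number (10569890) lies among those of genes of other chromosomes and its placement is uncertain.

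**Figure D2:**
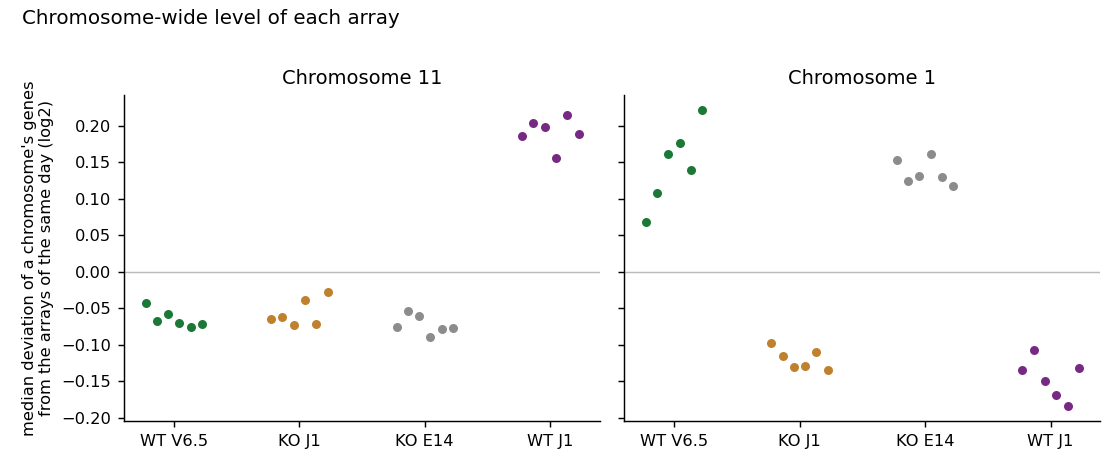
Median deviation (log2) of the genes of chromosome 11 and chromosome 1 from their means over the 8 arrays of the same day, less the median of the array over all chromosomes, after the filter on low values, with 1 point per array and 6 arrays per clone. WT J1 arrays lie at 0.16 to 0.22 on chromosome 11, above all V6.5 and KO arrays, and V6.5 and KO E14 arrays lie above both J1 clones on chromosome 1.

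On day 0 the naive pluripotency genes read higher in V6.5 as a list, and 1 of 18 measured members was called higher (background 0.261%). The list median was 0.67 on day 0, against −0.01 over all genes, and the mean level was 10.42 and 10.39 in the V6.5 arrays and 9.87 and 10.20 in the J1 arrays. The called member was the T-box gene Tbx3, at 9.58 and 9.37 in V6.5 and 8.14 and 8.34 in J1, a difference of 1.23 (SE 0.182, adjusted p = 0.00084). Tbx3 was again higher on day 7, at 9.91 and 10.45 in V6.5 and 8.66 and 8.92 in J1, by 1.39 (adjusted p = 0.00029). Tfcp2l1 read 11.05 and 11.33 in V6.5 and 8.96 and 10.26 in J1 on day 0 and was called in the mean over days, at 1.22 (SE 0.261). Zfp42, a marker of undifferentiated ESCs, read 10.05 and 10.04 in V6.5 and 10.54 and 10.98 in J1 and was not called. Tfcp2l1 was at 0.94 without J1 day 7 replicate 1 and at 0.91 with chromosome centring. In the mean over days Tbx3 was at 0.95 without V6.5 day 7 replicate 2, and at 1.00 without J1 day 7 replicate 1 or J1 day 3 replicate 2.

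Id1, Id2 and Id3, inhibitors of differentiation that BMP signals induce, were lower in V6.5 on day 0. Id1 read 9.36 and 9.19 in V6.5 and 11.07 and 10.69 in J1, Id2 read 10.70 and 10.87 in V6.5 and 12.28 and 11.82 in J1, and Id3 read 8.51 and 8.31 in V6.5 and 9.60 and 9.70 in J1. The differences were −1.61 (SE 0.217), −1.27 (SE 0.208) and −1.24 (SE 0.257), and these 3 genes were the members called among 24 measured genes of Nodal and BMP signalling (background 0.692% lower). None of the 3 was called on day 3 or day 7. The call of Id3 was lost without any 1 array of day 0, at adjusted p of 0.070 without V6.5 replicate 1, 0.12 without V6.5 replicate 2, 0.070 without J1 replicate 1 and 0.087 without J1 replicate 2.

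Single lineage genes differed on day 0 in both directions. Olig2, a bHLH factor of motor neuron and oligodendrocyte progenitors, read 9.04 and 8.76 in V6.5 and 6.72 and 6.56 in J1, and its neighbour Olig1 read 9.46 and 9.04 in V6.5 and 7.25 and 6.80 in J1. The differences on day 0 were 2.26 (SE 0.225) and 2.22 (SE 0.216), and both genes were called again on day 3, at 1.58 and 1.06, and not on day 7. Elobl was higher by 2.14 (SE 0.253), the Wnt antagonist gene Sfrp1 by 2.02 (SE 0.412) and Nfib by 1.91 (SE 0.376). Fabp7, a lipid-binding gene of radial glia, was lower, at 6.55 and 6.52 in V6.5 and 8.93 and 9.43 in J1. Nes, the nestin gene of neural progenitors, was lower by −1.01 (SE 0.228). Of 24 measured neural genes 1 (Olig2) was thus higher (background 0.261%) and 2 were lower (0.692%) on day 0. The keratin genes Krt8 and Krt18, which trophoblast and other epithelia express, were lower by −1.50 (SE 0.273) and −1.32 (SE 0.287). Kdr, a receptor of early mesoderm and endothelium, was lower by −1.09 (SE 0.278), and the lipoprotein gene Apoa2 was higher by 1.33 (SE 0.274).

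Of these day 0 genes, Olig1, Olig2 and Elobl kept their calls without any 1 array. Sfrp1 lost its call without V6.5 replicate 1 (adjusted p = 0.14), J1 replicate 1 (0.095) or J1 replicate 2 (0.051), and Nfib without V6.5 replicate 1 (0.055), V6.5 replicate 2 (0.092) or J1 replicate 1 (0.084). Fabp7 lost its call without V6.5 replicate 1 (0.072), V6.5 replicate 2 (0.063) or J1 replicate 2 (0.077). Nes and Kdr lost theirs without any 1 of the 4 arrays, at up to 0.22 and 0.29, both in a fit without a V6.5 array, and Kdr also at 0.050 to 0.052 without 1 V6.5 array of days 3 or 7. Krt8 lost its call without V6.5 replicate 1 (0.062) or J1 replicate 2 (0.091). Krt18 lost it without V6.5 replicate 1 (0.12), V6.5 replicate 2 (0.12) or J1 replicate 2 (0.18), and Apoa2 without V6.5 replicate 1 (0.12), V6.5 replicate 2 (0.069) or J1 replicate 2 (0.13).

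On day 3 the naive genes Nr0b1, Nr5a2 and Esrrb were higher in V6.5 and the primitive streak genes Mixl1 and Gsc lower. None of the 3 naive calls held without J1 replicate 2. In a bulk sample, fewer cells of a type and less RNA per cell cannot be told apart, and this holds for all lineage genes below. The 3 were the called members among 18 of the naive list (background 0.296%), with none lower and a list median of 0.84. Nr0b1, a nuclear receptor gene, read 10.57 and 10.97 in V6.5 and 9.54 and 7.67 in J1, a difference of 2.16 (SE 0.414, adjusted p = 0.0087). Esrrb read 9.38 and 9.58 in V6.5 and 8.81 and 7.01 in J1, and Nr5a2 read 8.71 and 8.93 in V6.5 and 7.83 and 6.41 in J1. Those were differences of 1.57 (SE 0.356) and 1.70 (SE 0.395). Dnmt3l, a cofactor of the de novo DNA methyltransferases, read 9.18 and 9.59 in V6.5 and 8.68 and 7.18 in J1. In each of these genes J1 replicate 2 read far below J1 replicate 1. Over the naive list the median of J1 replicate 1 minus replicate 2 was 0.77, and the median of V6.5 minus J1 was 0.36 against replicate 1 and 1.06 against replicate 2.

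Without J1 day 3 replicate 2 the differences were 1.23 for Nr0b1, 0.67 for Esrrb, 0.99 for Nr5a2 and 0.70 for Dnmt3l, and none was called (adjusted p of 0.15, 0.32, 0.41 and 0.37). Without V6.5 replicate 2 they were also not called (0.13, 0.23, 0.25 and 0.27), nor were Esrrb (0.092), Nr5a2 (0.10) and Dnmt3l (0.066) without V6.5 replicate 1. Without J1 replicate 1 Esrrb differed by 2.47 and Dnmt3l by 2.20. With chromosome centring Nr5a2, on chromosome 1, was at 1.33 (0.086). In the mean over days Nr0b1 was called at 1.08 and fell to 0.77 without J1 day 3 replicate 2 and to 0.89 without V6.5 day 7 replicate 2.

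**Figure D3:**
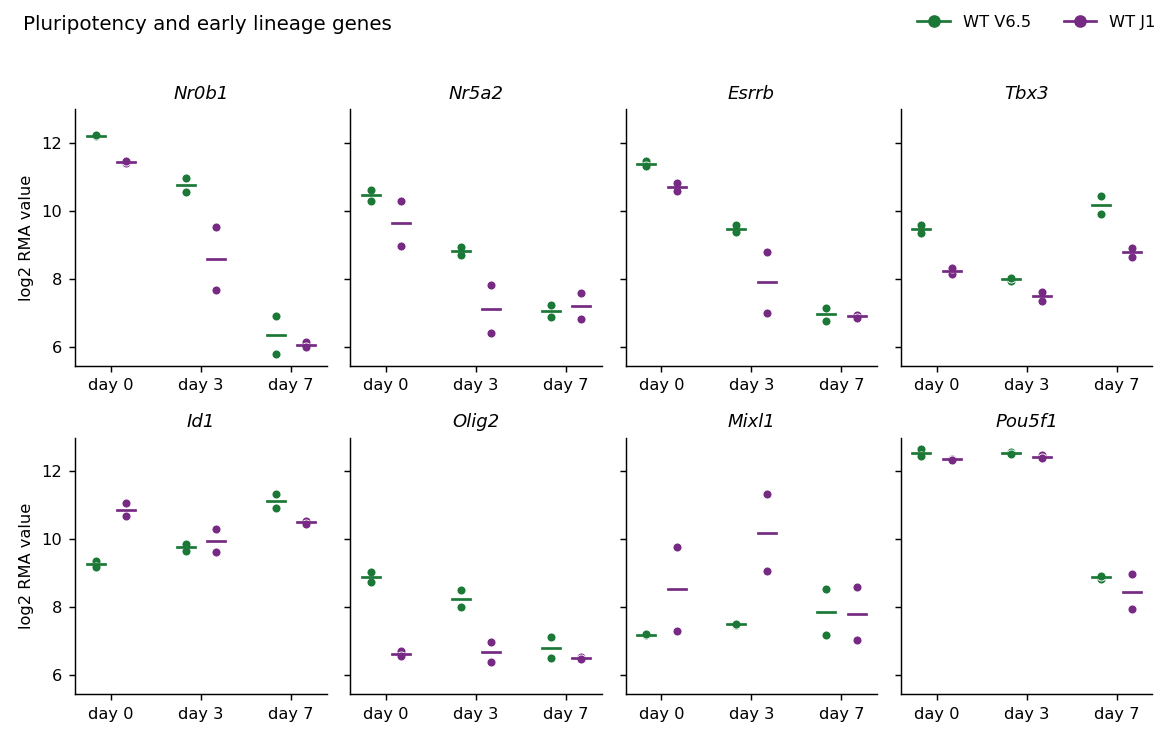
Log2 RMA values of 8 pluripotency and early lineage genes, with V6.5 arrays left of J1 arrays on each day, points for single arrays and bars for the mean of 2. The 2 J1 arrays lie apart on day 3 for Nr0b1, Nr5a2, Esrrb and Mixl1, while Pou5f1 read 12.39 to 12.56 in all 4 arrays of that day.

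Mixl1, a homeobox gene of the primitive streak, read 7.49 and 7.51 in V6.5 and 11.33 and 9.06 in J1 on day 3, a difference of −2.70 (SE 0.672, adjusted p = 0.04). Gsc, the goosecoid gene of the organizer region, read 7.48 and 7.50 in V6.5 and 8.89 and 8.16 in J1. Foxa2, a factor of node and endoderm, read 7.12 and 7.25 in V6.5 and 8.61 and 7.89 in J1. In all 3 genes J1 replicate 1 was the higher J1 array and both V6.5 arrays lay near their day 0 level. Eomes, chosen after its values were seen, read 9.85 and 9.47 in V6.5 and 11.31 and 10.24 in J1 and was not called, and Lhx1, at 6.48 and 6.05 in V6.5 and 8.83 and 7.54 in J1, was called in the mean over days (−1.13, SE 0.31) and not on day 3. Of 20 measured streak and early mesoderm genes 2 were lower on day 3 (background 0.341%) and none was higher. Without J1 day 3 replicate 1 Mixl1 was at −1.56 (adjusted p = 0.25), Gsc at −0.67 and Foxa2 at −0.71. Mixl1 also lost its day 3 call without V6.5 day 3 replicate 1 (0.16) or 2 (0.25) or V6.5 day 0 replicate 1 or 2 (0.054), and Gsc without V6.5 day 3 replicate 2 (0.055). The call of Lhx1 in the mean over days was lost without V6.5 day 0 replicate 1 (0.050), V6.5 day 3 replicate 2 (0.063), V6.5 day 7 replicate 1 (0.065), J1 day 0 replicate 2 (0.071), J1 day 3 replicate 1 (0.068) or J1 day 7 replicate 1 (−0.78).

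The other genes with large differences on day 3 were mixed in function. Cdh11, a cadherin of mesenchyme, read 6.49 and 6.72 in V6.5 and 9.59 and 9.03 in J1, and Cd59a, which protects cells from complement, read 7.68 and 8.12 in V6.5 and 9.78 and 10.55 in J1. The differences were −2.71 (SE 0.349) and −2.27 (SE 0.297). The amino acid transporter gene Slc6a14 was higher, at 6.92 and 7.32 in V6.5 and 5.09 and 5.05 in J1, as was the cytochrome P450 gene Cyp2b23 at 9.88 and 10.03 in V6.5 and 7.71 and 8.28 in J1. Zfp640 read 9.66 and 10.23 in V6.5 and 8.51 and 6.71 in J1. Vmn2r-ps104 differed by 2.13 (SE 0.182). Without J1 replicate 2 the day 3 difference of Zfp640 was 1.44 and not called (adjusted p = 0.082), nor was it without V6.5 replicate 2 (0.10).

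The day 7 comparison depended on which J1 array was used. Against J1 replicate 1 the V6.5 mean lay at least 2-fold away for 817 genes, 524 of them higher in V6.5 and 293 lower. Against J1 replicate 2 it did so for 632 genes, 184 higher and 448 lower. V6.5 was about as close to one J1 array as to the other, with r = 0.977 and 0.978 across genes. The lineage lists show how the J1 arrays differed. Of 26 measured blood and endothelium genes 16 were at least 2-fold higher in J1 replicate 2 than in replicate 1, as were 11 of 23 interferon response genes. Over all 19938 genes 840 were. Of 24 neural genes 10 were at least 2-fold higher in replicate 1, as were 8 of 12 primed epiblast genes, against 416 of all genes. V6.5 minus J1 had a median of 1.26 against replicate 1 and −0.08 against replicate 2 over the blood list. It was 0.92 and −0.19 over the cardiac list, 0.68 and −0.12 over the endoderm list and −0.91 and −0.03 over the neural list. Over the interferon list the order was the other way, with −0.10 against replicate 1 and −1.17 against replicate 2. The proteasome subunits differed by −0.01 and −0.05.

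Single lineage genes, chosen after their values were seen, show the same split of the J1 arrays. Pax6, a neural gene, read 6.41 and 6.10 in V6.5 and 10.02 and 6.09 in J1 on day 7. Otx2, of the forebrain and epiblast, read 7.97 and 8.47 in V6.5 and 11.58 and 6.82 in J1. Cdh5, the cadherin of endothelium, read 11.17 and 10.24 in V6.5 and 7.95 and 10.96 in J1. The erythroid factor Gata1 read 9.37 and 8.87 in V6.5 and 7.78 and 9.16 in J1, and the collagen gene Col1a1 read 10.51 and 9.71 in V6.5 and 8.97 and 10.85 in J1. In each of these genes J1 replicate 1 differed from V6.5 and J1 replicate 2 lay closer to it. None was called between the lines with both J1 arrays. The embryonic globin gene Hbb-bh1 was high in every array, at 13.07 and 12.85 in V6.5 and 12.37 and 13.29 in J1. Pou5f1 read 8.85 and 8.94 in V6.5 and 8.98 and 7.95 in J1, and Sox2 read 8.27 and 9.09 in V6.5 and 10.84 and 7.97 in J1.

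**Figure D4:**
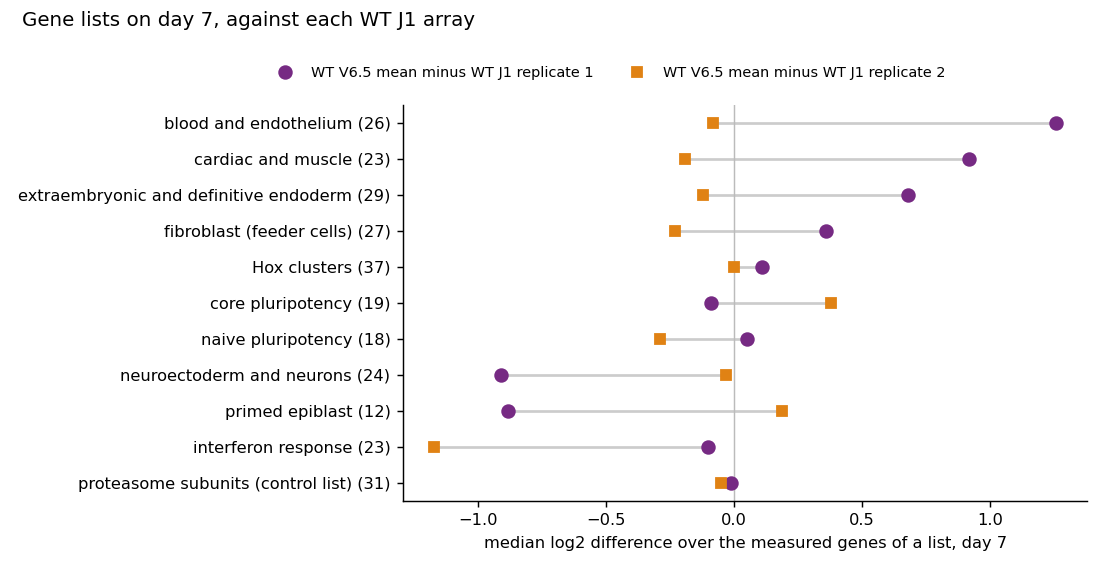
Median log2 difference on day 7 between the V6.5 mean and J1 replicate 1 (circles) or J1 replicate 2 (squares) over the measured genes of 11 lists, with the number of genes in parentheses. The blood list lies at 1.26 against replicate 1 and −0.08 against replicate 2, the interferon list at −0.10 and −1.17, and the proteasome control list near 0 against both.

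Called with both J1 arrays in the fit, the genes higher in V6.5 on day 7 included factors of mesoderm and heart. Foxf1, a factor of splanchnic mesoderm, read 12.13 and 12.28 in V6.5 and 10.15 and 10.50 in J1, a difference of 1.88 (SE 0.176, adjusted p = 6.8e-06). Hapln1, which links hyaluronan in the matrix of heart cushions and cartilage, read 11.07 and 10.58 in V6.5 and 7.72 and 8.61 in J1. Of 23 measured cardiac and muscle genes 3 were higher (background 0.592%) and none was lower. The median of that list was 0.92 against J1 replicate 1 and −0.19 against J1 replicate 2, so the list as a whole was not higher against both. Smarcd3, a chromatin remodelling subunit of heart progenitors, read 9.19 and 8.82 in V6.5 and 7.46 and 7.63 in J1. The slow troponin gene Tnni1 read 10.91 and 9.54 in V6.5 and 7.40 and 8.77 in J1, and Gata4 read 10.67 and 10.16 in V6.5 and 8.90 and 9.81 in J1. Foxf1, Hapln1, Smarcd3 and Tnni1 stayed above the 2-fold limit without either J1 array of day 7. Gata4 was at 0.61 without J1 replicate 1 and at 0.81 without V6.5 replicate 1. Sox17, of endoderm and hemogenic endothelium, was higher by 1.03 (SE 0.15), and was at 0.91 without J1 replicate 1, 0.87 without V6.5 replicate 2 and 0.69 with chromosome centring.

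A few patterning and signalling genes were also higher in V6.5 on day 7. Of 37 measured Hox genes 2 were higher (background 0.592%), as were 2 of 24 genes of Nodal and BMP signalling (Smad6 and Msx1), and none of 24 Wnt and 19 FGF genes was. Hoxc8 read 9.07 and 9.50 in V6.5 and 7.21 and 7.94 in J1, and Hoxb2 read 9.76 and 9.78 in V6.5 and 8.31 and 8.19 in J1. Smad6, an inhibitor that BMP signals induce, read 10.34 and 10.49 in V6.5 and 8.56 and 9.27 in J1, and Msx1 read 9.86 and 9.81 in V6.5 and 8.81 and 8.63 in J1. Gas6, a ligand of the TAM receptors, read 10.02 and 9.83 in V6.5 and 7.46 and 8.24 in J1. Rgs5, a gene of pericytes, differed by 2.26 (SE 0.369), Naaladl2 by 2.35 (SE 0.393) and the matrix gene Ccdc80 by 2.46 (SE 0.517). With probe sets of a gene averaged Naaladl2 was at 1.11. Without J1 replicate 1 Naaladl2 was at 1.30 and Ccdc80 at 1.04, and without J1 replicate 2 Ccdc80 was at 3.88. Ccdc80 lost its call without V6.5 replicate 1 (adjusted p = 0.094) or 2 (0.059). Among growth regulators the imprinted genes Igf2r and Cdkn1c were higher by 1.25 (SE 0.206) and 1.23 (SE 0.22), and were at 0.89 and 0.87 without J1 replicate 1. Il6st, the signalling chain of the LIF receptor, was higher by 1.03 (SE 0.202), and was at 0.85 without J1 replicate 1 and 0.91 without V6.5 replicate 2.

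Genes lower in V6.5 on day 7 included 2 of 24 measured neural genes, Lhx2 and Nefl (background 0.401%), and no neural gene was higher. The neural list median was −0.91 against J1 replicate 1 and −0.03 against J1 replicate 2. Maob, Epha7 and Lrrn1 are not on that list and were named by the size of their differences. Each of these genes read higher in J1 replicate 1 than in J1 replicate 2. Maob, the monoamine oxidase B gene, read 5.37 and 5.39 in V6.5 and 7.79 and 6.93 in J1, a difference of −1.98 (SE 0.232, adjusted p = 9.8e-05). Epha7, an ephrin receptor gene, read 8.47 and 8.01 in V6.5 and 11.21 and 9.23 in J1, and Lrrn1 read 7.65 and 7.32 in V6.5 and 10.58 and 8.20 in J1. The neural factor Lhx2 read 7.45 and 7.14 in V6.5 and 9.86 and 7.97 in J1, and the neurofilament gene Nefl read 6.94 and 7.26 in V6.5 and 8.55 and 7.79 in J1. Without J1 replicate 1 Epha7 was at −0.99, Lrrn1 at −0.71, Lhx2 at −0.68 and Nefl at −0.69, and none was called. Without J1 replicate 2 Epha7 was at −2.97, Lrrn1 at −3.09 and Lhx2 at −2.57. Without V6.5 replicate 1 or 2 of day 7 the calls of Epha7 (adjusted p of 0.058 and 0.18), Lrrn1 (0.083 and 0.19), Lhx2 (0.070 and 0.17) and Nefl (0.24 and 0.12) were lost, and that of Nefl also without a V6.5 array of day 0 (0.053) or day 3 (0.052). The matrix gene Thbs1 was lower by −1.56 (SE 0.397) and had the opposite dependence, at −0.97 without J1 replicate 2 (0.17), and lost its call without V6.5 replicate 2 (0.30).

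The sets called on single days overlapped in part. Days 0 and 3 shared 50 genes with 1 sign, 26.3% of the day 0 set and 39.4% of the day 3 set. Days 0 and 7 shared 34 genes, 17.9% and 17.2%, and days 3 and 7 shared 30 genes, 23.6% and 15.2%. Amot, a junction protein gene of the Hippo pathway that was chosen after its values were seen, was the gene called with opposite signs, at −1.24 on day 0 and 1.05 on day 7. The difference between the lines itself changed from day 3 to day 7 for 49 genes (0.246%), of which 43 changed upward in V6.5 relative to J1 (0.216%) and 6 downward (0.0301%). That count was 333 without J1 day 7 replicate 1, 729 without J1 day 7 replicate 2, 31 without V6.5 day 3 replicate 1 and 19 without V6.5 day 3 replicate 2.

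The 12 KO arrays add to the estimate of the spread, and some calls were lost with WT arrays only. On day 0 these were Sfrp1, Nfib, Kdr, Fabp7, Nes, Krt18, Rian, Mir382, Gstm5, Id3 and Uty, at adjusted p of 0.080 to 0.13. On day 3 they were Zfp640, Nr0b1, Mixl1, Nr5a2, Esrrb, Dnmt3l, Gsc, Foxa2, Fn1, Mir382, Sp5 and Fzd7, at 0.051 to 0.21. On day 7 they were Ccdc80, Naaladl2, Epha7, Lrrn1, Gata4, Lhx2, Nefl, Thbs1, Mir377, Mir300, Mir376c, Ddx58 and Il6st, at 0.051 to 0.17. In the mean over days they were Mixl1 (0.13) and Lhx1 (0.11). Array weights lost the day 7 calls of Epha7, Lrrn1, Gata4, Lhx2, Nefl, Thbs1, Mir377, Mir300, Mir376c, Oasl2, Ddx58, Gbp3, Gstm5, Gstm6, Mgst1, Il6st and Uty, at 0.051 to 0.23.

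The KO clones gave a further reading of the genes called on all 3 days. Of the 22 genes, KO J1 lay nearer WT J1 than V6.5 for 17 (77.3%), KO E14 for 18 (81.8%) and each of both clones for 16 (72.7%). Of all 19938 genes the shares were 43.3%, 45.8% and 31.4%. For the 85 genes of the mean over days they were 61.2%, 62.4% and 54.1%. The KO J1 clone shares its line with WT J1 and KO E14 does not. The choice of genes used the WT arrays of both lines, and so did the reading of which line was nearer. Nothing about line background is read from these shares, and no test was made.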

How the data were processed

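RNA was hybridised to Affymetrix gene arrays, 1 array per sample, 24 in all. The deposited table holds log2 values that the authors made with RMA in Affymetrix Power Tools, per the submitters' processing notes. Which versions, which build and which annotation they used is not given in the sources used here. RMA sets all arrays to 1 distribution, which hides any difference in total RNA, and values ran from 2.08 to 14.42. Arrays carry no counts, so precision is limited by their number.

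Of 35556 probe sets, 21789 had 1 gene symbol in the platform annotation, 1621 had several and 12146 were not listed. Each of 19938 genes was taken by its probe set with the highest mean. limma 3.58.1 in R 4.3.3 fitted the means of all 12 groups (12 residual degrees of freedom) with empirical Bayes moderation and Benjamini-Hochberg adjustment over all genes. Calls needed an adjusted p under 0.05 and 2-fold. The fit was tested on simulated data. Named genes were the largest called differences each way without overlap (10 for the mean over days, 6 for other comparisons), passing over unnamed symbols, up to 4 called members of each of 31 lists, and a few fixed genes. The members and lists were chosen with earlier results of these data known. The alternatives were WT arrays only, a replicate block, quantile normalization, a filter on low values, no fold minimum, array weights, a mean-variance trend, means of probe sets and single arrays left out. Chromosome centring and days 0 and 3 alone were added after seeing the data. The brachyury gene T and Ddx3y are not analysed here.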

Additional observations from a re-analysis of the deposited data

Results flagged for a closer look

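The difference between V6.5 and J1 was tested for a change over the days, and the genes below were called in that test of the difference. From day 0 to day 3 it was 1 gene, Ct55, at 2.49. From day 3 to day 7 there were 49. The largest upward changes were Cd59a at 3.15, Hapln1 at 3.07, Cdh11 at 2.97, the kelch family gene Klhl4 at 2.63, Gas6 at 2.45 and the zinc transporter gene Slc39a8 at 2.44. Cd59a was at −2.27 on day 3 and 0.88 on day 7, and Cdh11 at −2.71 and 0.26, so these were genes low in V6.5 on day 3. Hapln1 was at −0.41 on day 3 and 2.66 on day 7, and Gas6 at −0.38 and 2.07, so these were genes high in V6.5 on day 7. The 6 downward changes were Slc6a14 at −2.21, Vmn2r-ps104 at −1.58, Plce1, a phospholipase gene, at −1.38, the ascorbate transporter gene Slc23a1 at −1.38, Srgap3 at −1.13 and the sugar transporter gene Slc50a1 at −1.11.

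List members with such a change were Foxf1 at 1.90, Msx1 at 1.74, Hoxc8 at 1.68, Smad6 at 1.52, Hoxb2 at 1.38, Smarcd3 at 1.33, Foxa2 at 1.30 and Sox17 at 1.08. The calls of Ct55, Cdh11, Klhl4, Vmn2r-ps104, Plce1, Slc23a1, Slc50a1, Sox17, Smarcd3, Foxa2, Hoxc8, Hoxb2 and Smad6 were each lost without at least 1 single array. Those of Vmn2r-ps104 (adjusted p = 0.071, limma) and Smad6 (0.061) were lost without V6.5 day 3 replicate 2 only. Those of Cdh11 were lost without J1 day 3 replicate 1 (0.051) or V6.5 day 3 replicate 1 (0.060), and those of Smarcd3 without V6.5 day 7 replicate 1 (0.058), J1 day 3 replicate 2 (0.054) or V6.5 day 3 replicate 2 (0.060). The others named in that list were lost without 4 or more arrays each. With WT arrays only, Cd59a (0.073), Slc39a8 (0.14), Slc6a14 (0.056) and Srgap3 (0.059) also lost their calls. So did every gene of that list but Cdh11, at up to 0.29, while Hapln1, Gas6, Foxf1 and Msx1 kept theirs. With the replicate block over the 12 WT arrays Cdh11, Hapln1, Gas6, Foxf1 and Msx1 lost theirs too, at adjusted p of 0.05 to 0.063 (limma).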

How the results depend on the processing

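With WT arrays only, 66 genes were called on day 3, 123 on day 7, 0 for the change from day 0 to 3, 12 for that from day 3 to 7 and 13 on all 3 days. With the replicate block over the 12 WT arrays these were 57, 115, 0, 2 and 13. With the block over all 24 arrays 7 genes were called for the change from day 0 to 3. Same-numbered arrays deviated with correlations of 0.05, −0.08 and −0.40 on days 0, 3 and 7, so the numbers were not taken as pairs. Without a fold minimum 2644 genes were called over the days (1266 higher, 1378 lower), 605 on day 0, 507 on day 3, 804 on day 7 and 91 on all days. Array weights gave 93 on day 7 (67 higher, 26 lower), 18 and 29 for the changes and 12 on all days. Means of probe sets and chromosome centring each gave 3 for the change from day 0 to 3. Days 0 and 3 alone gave 129, with 68 of the 85 kept. The median of chromosome 1 was 0.33 and that of chromosome 11 −0.25 with the filter on low values.

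Leaving out single arrays gave 73 to 121 genes over the days, 93 to 220 on day 0, 59 to 225 on day 3, 121 to 787 on day 7, 0 to 23 and 19 to 729 for the changes, and 13 to 26 on all days. Of 9365 alternative values of the named genes 8810 kept direction and side of the threshold, 462 lost it, 92 gained it and 1 turned. That was Otx2, day 7, at −0.98, which was 1.40 without J1 replicate 1 and −3.36 without J1 replicate 2. The causes were not tested. The limits are 2 arrays a group and 1 clone a line.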

Other observations

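Imprinted genes outside the Dlk1 to Dio3 region differed on day 0 in both directions. Of 26 measured, 1 was higher (background 0.261%) and 2 were lower (0.692%). Grb10, which encodes an adaptor that restrains growth factor signalling, averaged 11.15 in V6.5 and 10.03 in J1 (SE of the difference 0.17). Sgce, the epsilon-sarcoglycan gene, read 7.44 and 7.29 in V6.5 and 8.53 and 8.77 in J1. The lines did not overlap for either gene. Nnat was lower by −1.23 (SE 0.291), and its call was lost without any 1 array of day 0 (adjusted p of 0.15 without V6.5 replicate 1, 0.16 without V6.5 replicate 2, 0.24 without J1 replicate 1 and 0.060 without J1 replicate 2, limma). Grb10 was at 0.98 without V6.5 day 0 replicate 1.

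Tet2, an enzyme gene of DNA demethylation, read 10.12 and 10.20 in V6.5 and 9.03 and 9.25 in J1 on day 0, and lost its call without any 1 array of that day (0.14 without V6.5 replicate 1, 0.16 without V6.5 replicate 2, 0.20 without J1 replicate 1 and 0.079 without J1 replicate 2). Of 24 measured Wnt genes 2 were higher on day 0 (background 0.261%), Sfrp1 and the receptor gene Fzd5, which read 9.76 and 9.78 in V6.5 and 8.56 and 8.97 in J1. On day 3 the receptor gene Fzd7 was higher, at 11.61 and 11.62 in V6.5 and 10.94 and 10.08 in J1, and the Wnt target Sp5 lower, at 6.51 and 6.40 in V6.5 and 8.22 and 7.30 in J1. Fzd5 was at 0.80 with chromosome centring and without J1 day 0 replicate 1, and at 1.00 without V6.5 day 0 replicate 2. Fzd7 was at 0.73 with centring and lost its call without V6.5 day 3 replicate 1 (0.095), V6.5 day 3 replicate 2 (0.15) or J1 day 3 replicate 2 (0.30). Sp5 was at −0.85 without J1 day 3 replicate 1 and lost its call without any 1 array of day 3 or any 1 V6.5 array.

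Among the other lists, Fn1, Phlda3, a p53 target, and the meiotic gene Sycp3 were each the 1 member of their list called on day 3, at 1.11, 1.11 and −1.15. Their lists had 27, 14 and 24 measured members (background 0.296% higher and 0.341% lower). Fn1 (0.73) and Phlda3 (0.74), both on chromosome 1, were not called with chromosome centring. The calls of Fn1 (0.30) and Phlda3 (0.22) were lost without J1 day 3 replicate 2 and that of Sycp3 (0.16) without J1 day 3 replicate 1, and all 3 without V6.5 day 3 replicate 1 (0.091, 0.066 and 0.17) or 2 (0.18, 0.22 and 0.091). In 8 of the 31 lists no gene was called over the days or on any day. These were the primed epiblast, cell cycle, glycolysis, Polycomb, FGF signalling, ESC microRNA and two-cell-like genes and the proteasome control. Of all genes 0.426% were called over the days and 0.637% to 0.993% on a single day. No call is thus the usual outcome for lists of this size and does not show that these genes were alike in the lines.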
